A study of Xenopus laevis with 14 samples.

Results

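The genes described here carry out the first steps of the secretory pathway: signal recognition and entry into the endoplasmic reticulum (ER), signal peptide removal, folding in the ER lumen, and exit in COPII vesicles. Members were taken by symbol, with the copy suffix .L or .S dropped: any name that starts with sec11, sec13, sec22, sec23, sec24, sec31, sec61, sec62, sec63, ssr, spcs, pdia, srp, dnajb, dnajc, hspa or hsp90, and calr, canx and ddit3. This gave 97 of the 9715 genes that the array annotation names, under 75 names once the copies are joined. The suffixes mark copies on the L and S subgenomes of this tetraploid frog, and both copies were measured for 22 of the names. 96 members were measured at stage NF32 and 95 at NF36, 94 of them at both; dnajc10.S and hspa2.L had values at NF32 alone and sec24d.L at NF36 alone. A gene read by several probe sets was represented by the one with the highest mean at that stage.

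Anterior endoderm, the tissue from which pancreas and liver arise, was dissected from Xenopus laevis embryos and its RNA was read on 14 Affymetrix arrays. In every group the 2 dorsal vegetal blastomeres had been injected at the 8-cell stage. Control embryos received 400 pg of GFP mRNA, and the others the same GFP mRNA plus 800 pg of mRNA for Ptf1a, a transcription factor required for exocrine pancreas. Each RNA came from about 15 pooled explants, with 3 arrays per group at NF32 and 4 per group at NF36, stages 8 hours apart. The Ptf1a embryos thus also carried more injected mRNA than the controls, and explants hold whatever cells were dissected with the endoderm. Per the series description, control and Ptf1a samples came from the same batch of embryos, and the numbered arrays of a stage are paired as batches here. No strain, genotype or sex was given in the sources used here.

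Proteins bound for secretion are met at the ribosome by the signal recognition particle and passed to its receptor and to the Sec61 channel, with the TRAP complex (ssr genes) beside it. Signal peptidase trims the entering chain, and the lumen holds the HSP70 chaperone BiP (hspa5) with its J-domain partners, the HSP90 family member GRP94 (hsp90b1), the lectin chaperones calreticulin and calnexin, and protein disulfide isomerases. Folded cargo leaves in COPII vesicles. In the exocrine pancreas, liver and other secretory tissues this machinery is abundant, and ER stress raises many of the same genes through the unfolded protein response.

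The name rule also collects proteins of other compartments. By textbook role, 21 members belong to ER targeting and the translocon, 6 to signal peptidase, 12 to COPII and ER to Golgi transport and 23 to folding in the ER, and these 4 groups held 61 measured members at each stage. A further 6 act in mitochondria, 8 are HSP70 and HSP90 proteins of the cytosol, 17 are other J-domain proteins, and ddit3.L encodes the stress transcription factor CHOP. The remaining 3 only share the opening letters: srpk1.S and srpk3.S are kinases of splicing factors and ssrp1.S is a histone chaperone subunit. The label of an ER gene set therefore fits 61 of the 96 members at NF32 and 61 of the 95 at NF36.

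Intensities are the deposited linear values, and a change is Ptf1a minus GFP on the scale log2(intensity + 16), given ± its standard error. Unless stated, standard errors and intervals are from the fit that does not use the pairing of arrays. This holds also beside calls made only with the pairing, so the error shown is not the one behind such a call. The offset of 16 draws changes of dim genes toward 0. The array means were 140 at NF32 and 100 at NF36, so each stage was scaled on its own and levels are not compared between stages. Most members were bright: 80 of 96 lay above the NF32 median of 50.5 and 81 of 95 above the NF36 median of 35.5. These medians are over all probe sets, and most named genes lay above them too, 5893 of 9260 at NF32 and 6097 of 9594 at NF36. As a check of the labels, ptf1a read 13.6 ± 5.41 in GFP and 314 ± 92.7 in Ptf1a explants at NF32 (SD, n = 3), and 30.0 ± 3.34 and 179 ± 94.2 at NF36 (SD, n = 4). Intensity in bulk tissue cannot tell fewer cells of a type from less RNA per cell.

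At NF36, ER folding, translocon, signal peptidase and COPII genes lay slightly lower in Ptf1a explants. The median change was -0.19 over the 61 members of these groups, against -0.00 over all 9594 named genes and -0.01 over the 34 other members. The largest falls were in GRP94 (hsp90b1.L, -0.65 ± 0.13) and calreticulin (calr.L, -0.45 ± 0.09), while BiP (hspa5.L, -0.18 ± 0.11) did not pass the test. ddit3.L, dnajb2.L and dnajc27.S, all dim, read higher. Cytosolic HSP70 and HSP90 genes had a median of -0.06, and the 6 mitochondrial chaperones had one of -0.14.

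With limma and no pair term, 3 members fell at NF36 (calr.L, hsp90b1.L and sec11a.L) and none rose, against 2.23% of named genes called lower and 4.17% called higher, so the count of 3 of 95 (3.16%) is near the background. At an unadjusted p under 0.05, 22 members were lower and 3 higher, beside 10.6% and 11.8% of named genes. With the batch of embryos as a block, 35 of 95 members fell (36.8%) and 3 rose, against 13.1% and 13.4% of named genes. The falls lay mainly in the 4 ER and COPII groups, 30 of 61 (49.2%), while 5 of the 34 other members fell (14.7%). Among members above the stage median, 34 of 81 fell with the block (42.0%), against 15.8% of named genes above it. In sign, 72 of 95 members were below 0 (50.6% of named genes), and 54 were lower in all 4 batches (24.2%) with 6 higher in all 4 (24%). All Ptf1a arrays lay below all GFP arrays for 7 members (7.37%), which is near the 6.67% of named genes. The 7 were both copies of calr, sec11a and ssr3 and hsp90b1.L. Only for ddit3.L did all Ptf1a arrays lie above all GFP arrays (8.46% of named genes). Without any of the 4 GFP arrays, or without Ptf1a replicate 1 or 4, the fit with no pair term called 0 members. Without Ptf1a replicate 3 it called 2, calr.L and hsp90b1.L, both lower. Without Ptf1a replicate 2 it also called 2, hsp90b1.L lower and ddit3.L higher. Over these fits the share of named genes called ran from 0.48% to 2.63% lower and from 1.67% to 4.38% higher. The count with the block was 21 without batch 2, 23 without batch 3 and 21 without batch 4. The share of named genes called fell as well, to 6.56% lower and 8.18% higher without batch 2, 9.66% and 9.60% without batch 3, and 6.11% and 8.47% without batch 4.

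**Figure D1:**
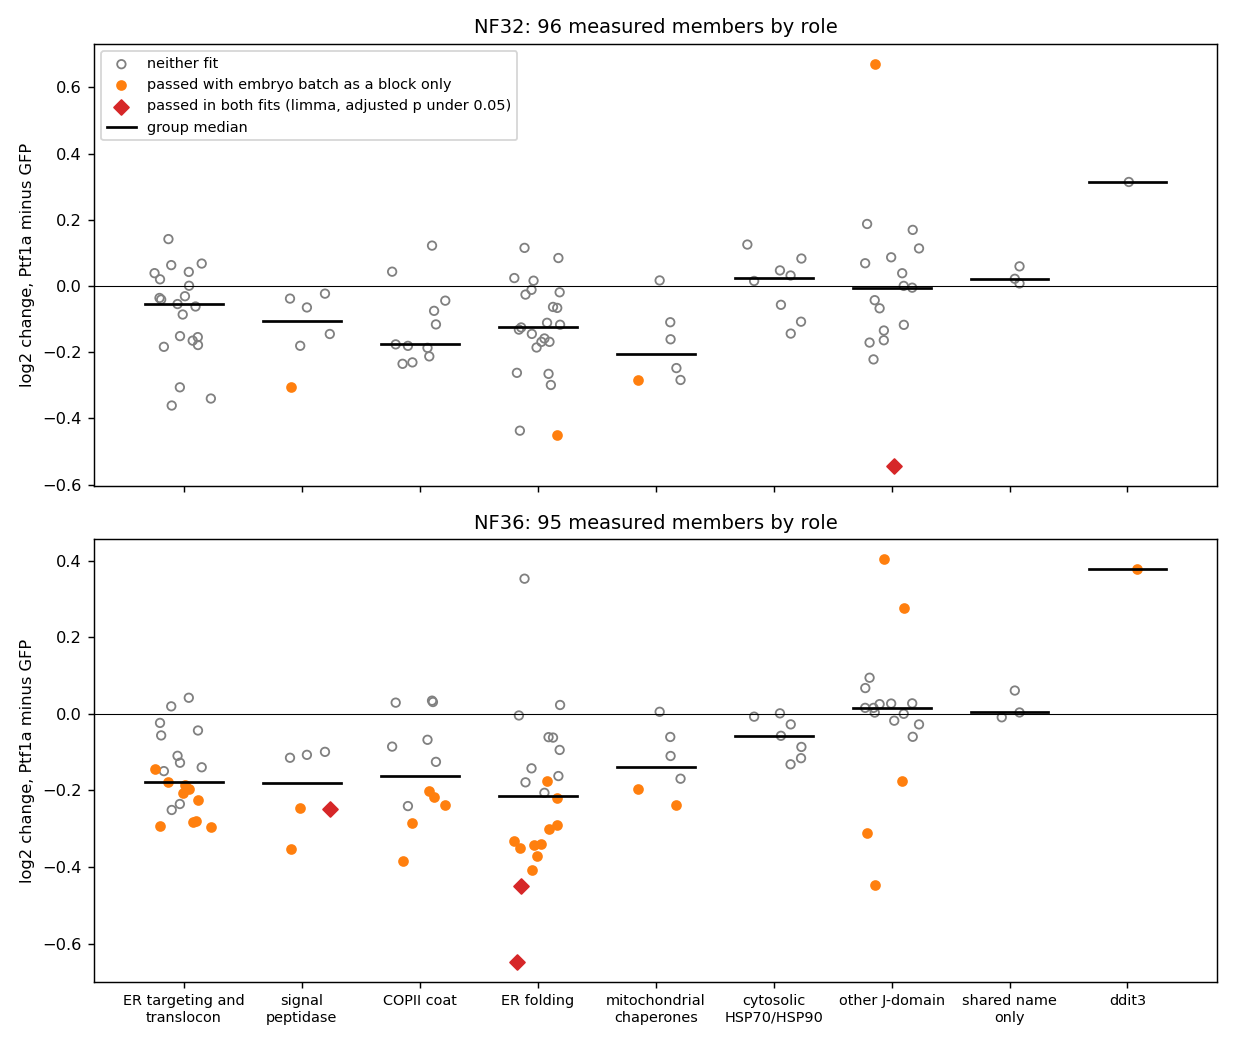
Log2 change (Ptf1a minus GFP) of each member at NF32, upper, and NF36, lower, by role, with a bar at each group's median. Red diamonds passed limma in both fits, orange points only with the batch of embryos as a block, and open grey circles in neither; at NF36 orange and red points fill the lower part of the 4 groups on the left, where 30 of 61 members fell with the block.

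Among genes of folding in the ER lumen, the median of the 22 members measured at NF36 was -0.21, and 12 fell with the block (54.5%, against 13.1% of named genes) while none rose. Of the 12, calr.L and hsp90b1.L fell with no pair term as well.

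Calreticulin binds calcium and, as a lectin, retains unfinished glycoproteins. calr.L read 1000.3, 855.1, 976.2 and 933.1 on the GFP arrays 1 to 4 and 701.4, 585.9, 768.1 and 694.4 on the Ptf1a arrays. All Ptf1a values lay below all GFP values. The change was -0.45 ± 0.09, a difference of means of -27.0% (limma adjusted p = 0.0297, 0.00238 with the block). Its S copy, calr.S, read 1475.9, 1358.6, 1637.4 and 1627.3 in GFP and 1315.6, 1062.4, 1333.3 and 1267.5 in Ptf1a explants, again with no overlap. That change, -0.29 ± 0.09, passed only with the block (limma adjusted p = 0.124, 0.00859 with the block).

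GRP94, the ER member of the HSP90 family, folds a restricted set of secreted and membrane proteins. hsp90b1.L read 1142.3, 1202.7, 1453.8 and 1194.3 in GFP explants and 795.3, 608.5, 936.2 and 850.7 in Ptf1a explants. The groups did not overlap. The difference of means was -36.1% and the change -0.65 ± 0.13 (limma adjusted p = 0.032, 0.00398 with the block). hsp90b1.S read 1016.7, 861.3, 678 and 860 against 839.3, 615.1, 562.2 and 751.1. Here the groups overlapped: batch 1 was high and batch 3 low in both groups, and every Ptf1a array was below its own batch's GFP array; the change was -0.30 ± 0.15 (limma adjusted p = 0.345, 0.0126 with the block). The calls of calr.L and hsp90b1.L with no pair term held under the offsets, normalizations, filter, weights and fit settings tried, but calr.L kept its call in 1 of the 8 fits that leave out an array (without Ptf1a replicate 3) and hsp90b1.L in 2 (without Ptf1a replicate 2 or 3).

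BiP, the lumenal HSP70 that also holds the stress sensors inactive, had changes at NF36 that passed in neither fit. hspa5.L read 707, 650.8, 591.9 and 653.9 in GFP and 648.5, 491, 514.3 and 653.5 in Ptf1a explants. Batch 2 showed a clear drop and batch 4 almost none. The change of -0.18 ± 0.11 had a 95% interval from -0.43 to 0.07 (limma adjusted p = 0.447, 0.107 with the block). For hspa5.S it was -0.09 ± 0.14, with an interval from -0.40 to 0.21, so a fall as large as that of calr.S is within both intervals. Whether BiP and GRP94 differed in their change was not tested.

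**Figure D2:**
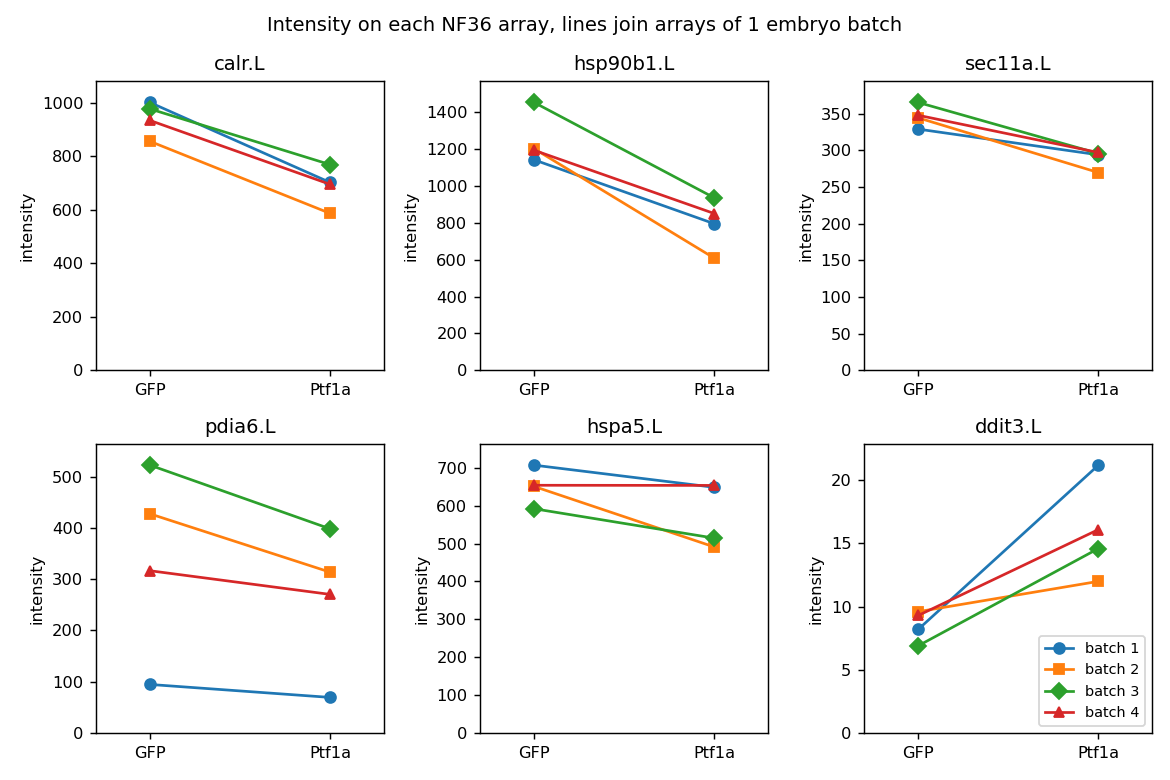
Deposited intensity (vertical axis from 0) of 6 members on each NF36 array, with lines joining the GFP and Ptf1a arrays of 1 batch of embryos. calr.L, hsp90b1.L and sec11a.L drop in every batch, pdia6.L drops in every batch from very different levels, hspa5.L hardly moves in batch 4, and ddit3.L is higher in every batch at intensities of at most 21.2.

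Among the protein disulfide isomerases, which form and rearrange disulfide bonds, 3 fell with the block (13.1% of named genes) and none passed without it. pdia4.L read 791.5, 644.3, 563.9 and 591.5 against 649.8, 377.2, 442.1 and 488.9, a change of -0.41 ± 0.17 (limma adjusted p = 0.219, 0.0192 with the block). pdia3.S, the partner of calreticulin and calnexin, read 483.5, 703.4, 788.9 and 790.3 against 381, 487.7, 662.5 and 654.3, a change of -0.34 ± 0.21 (limma adjusted p = 0.461, 0.00832 with the block). Both were lower in all 4 batches with overlapping groups. pdia6.L showed the widest gap between the fits. It read 94.6, 427.7, 522.7 and 316.6 in GFP and 69.3, 313.8, 398.4 and 270.4 in Ptf1a explants, so levels of the GFP arrays spanned 5.53-fold while every batch dropped. Its change of -0.35 had a standard error of 0.61 with no pair term and 0.05 with the block (limma adjusted p = 0.867 and 0.00505). The S copy had the same low batch 1 (98.3 against 327.3 to 552.1 in GFP) but not the same drop: pdia6.S was higher in Ptf1a explants in batch 1 (150.9) and lower in the other 3, with a change of -0.00 ± 0.54. pdia5.L changed by -0.21 ± 0.11 and was lower in all 4 batches (limma adjusted p = 0.375, 0.0808 with the block).

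pdia2.L is the isomerase of the exocrine pancreas in mammals. It read 27, 35.8, 25.3 and 21.6 in GFP and 45.6, 37.7, 73.1 and 15.2 in Ptf1a explants. It was higher in batches 1 to 3, mostly in batch 3, and lower in batch 4, with a change of 0.35 ± 0.28 (limma adjusted p = 0.595, 0.267 with the block). No other ER folding member had a positive change above 0.1 at NF36.

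Calnexin, the membrane-bound counterpart of calreticulin, had canx.L at 925.7, 683.6, 804.6 and 800 against 823, 634.8, 700.8 and 679.4. Each Ptf1a array was below its partner in a change of -0.17 ± 0.11 (limma adjusted p = 0.461, 0.0288 with the block). canx.S changed by -0.06 ± 0.19 and was higher in batch 3. Several J-domain partners of BiP also fell with the block: dnajb9.L by -0.33 ± 0.14, dnajc3.L (P58IPK) by -0.37 ± 0.16, dnajb11.S (ERdj3) by -0.34 ± 0.24 and dnajb11.L by -0.22 ± 0.14, each lower in 4 of 4 batches (limma adjusted p with the block 0.00332, 0.00546, 0.012 and 0.0353). With no pair term their adjusted p lay between 0.228 and 0.538. Another, dnajc1.S, was lower in 4 of 4 batches by -0.16 ± 0.08 without passing (limma adjusted p = 0.293, 0.0732 with the block). The membrane J-domain proteins dnajb12.S, dnajb14.S and dnajc25.S changed by -0.06, 0.02 and -0.14 and did not pass in either fit.

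Signal peptidase cleaves signal peptides through its catalytic subunits sec11a and sec11c, with spcs1, spcs2 and spcs3 as accessory subunits. sec11a.L read 329.1, 344.5, 365.5 and 348 in GFP and 294, 269.8, 295.8 and 297.2 in Ptf1a explants. The groups were apart and the spread was narrow, so a change of -0.25 ± 0.06 passed with no pair term (limma adjusted p = 0.0476, 0.0125 with the block). That call ended with an offset of 1 (limma adjusted p = 0.107), quantile normalization (0.0565), the filter on dim probe sets (0.0589) and trended robust eBayes (0.0601), and in each of the 8 fits without an array. sec11c.S read 343.2, 293.7, 247 and 280.2 against 254.6, 204.1, 221.9 and 214.1, with a single Ptf1a value, that of batch 1, above the lowest GFP value. Its change was -0.35 ± 0.11 (limma adjusted p = 0.097, 0.0109 with the block). spcs3.L changed by -0.25 ± 0.09 and fell with the block alone (limma adjusted p = 0.152, 0.00901 with the block). A second probe set gave the same call for sec11a.L (-0.27 ± 0.06, limma adjusted p = 0.0493), while a dim one for sec11c.S, at a mean of 35.1, did not pass with the block (-0.35 ± 0.18, limma adjusted p = 0.0567). sec11a.S (-0.11 ± 0.05), spcs2.S (-0.11 ± 0.07) and spcs1.L (-0.10 ± 0.12) did not pass in either fit, and all 6 members of the group had negative changes.

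In ER targeting and the translocon, 10 of 21 members fell with the block, beside 13.1% of named genes. None passed without it (2.23% of named genes lower and 4.17% higher), and the median change was -0.18. The TRAP subunits ssr3.S and ssr3.L had nearly equal changes, -0.28 ± 0.10 and -0.28 ± 0.11, in groups that did not overlap. ssr3.S read 1011.3, 919, 1035.7 and 923.2 in GFP and 909.2, 657.4, 842.6 and 803.3 in Ptf1a explants, lowest in batch 2 (limma adjusted p = 0.165, 0.022 with the block). ssr1.S changed by -0.29 ± 0.12 and fell with the block (limma adjusted p = 0.0143 with it). Of the other TRAP genes, ssr4.S fell with the block by -0.14 ± 0.15, ssr4.L was at -0.25 ± 0.24 and ssr1.L at -0.04 ± 0.42. The brightest member of the group, ssr2.S, stayed between 1905 and 2028.1 in GFP and between 1915.4 and 2083.7 in Ptf1a explants. These ssr2.S values come from the brighter of its probe sets, with a change of 0.02 ± 0.05. The dimmer one, at a mean of 1602, changed by -0.23 ± 0.06 (limma adjusted p = 0.0549, 0.013 with the block), so the probe sets of ssr2.S disagree.

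sec61b.L, the small beta subunit of the channel, read 1514.9, 1533.6, 1601.7 and 1379.4 in GFP and 1370.4, 1251.2, 1443.1 and 1257.7 in Ptf1a explants. It was lower in every batch, by -0.18 ± 0.07 (limma adjusted p = 0.217, 0.0349 with the block). The pore subunit sec61a1.S, at -0.29 ± 0.24, and the auxiliary channel protein sec63.S, at -0.21 ± 0.08, fell with the block (limma adjusted p = 0.0347 and 0.0225 with it). Signal recognition particle genes srp19.L (-0.22 ± 0.08) and srp72.S (-0.19 ± 0.09) and the receptor subunit srprb.L (-0.20 ± 0.08) fell with the block too, at adjusted p of 0.0221, 0.0188 and 0.0147 by limma; a dimmer probe set of srp19.L did not pass (-0.23 ± 0.13, 0.0876 with the block). srp54.S, which binds the signal peptide, changed by -0.06 ± 0.09, and the copies of sec62, a channel subunit for post-translational entry, by 0.04 ± 0.10 and -0.02 ± 0.08, without passing.

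COPII and ER to Golgi members had a median of -0.16, and 5 of 12 fell with the block, beside 13.1% of named genes. sec24a.S, a cargo-binding coat subunit, read 236.6, 182.2, 184.2 and 224.6 in GFP and 187.6, 132.4, 141.7 and 159.1 in Ptf1a explants. Only the Ptf1a array of batch 1 reached into the GFP range, and the change was -0.38 ± 0.12 (limma adjusted p = 0.117, 0.0029 with the block). The outer coat gene sec31b.L changed by -0.22 ± 0.08, the SNARE gene sec22b.L by -0.29 ± 0.13, and both copies of sec23ip, which binds the inner coat, by -0.20 ± 0.11 and -0.24 ± 0.12, all falling with the block. sec13.S, the brightest of the group and also part of nuclear pores, was lower in 4 of 4 batches by -0.13 ± 0.07 without passing (limma adjusted p = 0.393, 0.0685 with the block). Its dimmer probe sets differed in sign, at -0.13 ± 0.19, 0.18 ± 0.08, -0.06 ± 0.08 and 0.06 ± 0.16, and passed in neither fit. The S copies of sec31b and sec22b, at 0.03 ± 0.06 and 0.03 ± 0.15, did not share the sign of their L copies.

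Outside the ER the picture was mixed. Both copies of hspa9, the mitochondrial HSP70 mortalin, fell with the block, hspa9.L by -0.20 ± 0.09 and hspa9.S by -0.24 ± 0.14 (limma adjusted p = 0.0363 and 0.01 with it). None of the 7 cytosolic HSP70 and HSP90 genes passed in either fit, though 4 were lower in all 4 batches (24.2% of named genes). The brightest, hspa1l.S, read 2238, 2207.6, 2260.4 and 2327.9 in GFP and 2303, 2253, 2159.4 and 2328.8 in Ptf1a explants. These values interleave, and the interval of the change ran from -0.12 to 0.12. For hspa8.L, the constitutive HSP70, the interval was -0.20 to 0.15. hsp90ab1.S, the cytosolic HSP90, read 298.8, 419.4, 1004.8 and 605.4 against 285.1, 382, 1019.9 and 670.2, so that batches differed by 3.36-fold in GFP and the groups by -0.01 ± 0.45 with no pair term and ± 0.06 with the block. The 3 members that only share a name lay between -0.01 and 0.06.

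**Figure D3:**
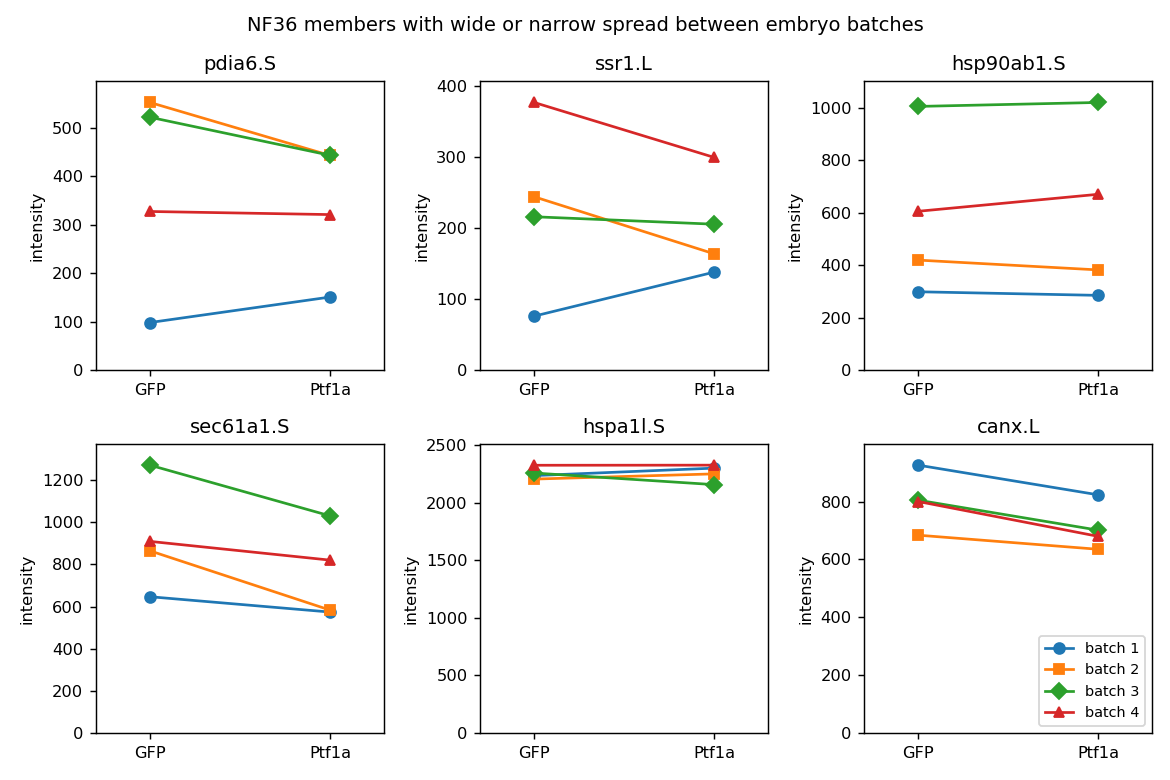
Deposited intensity (vertical axis from 0) on each NF36 array for 6 members, with lines joining arrays of 1 batch of embryos. pdia6.S, ssr1.L, hsp90ab1.S and sec61a1.S differ more between batches than between GFP and Ptf1a, whereas hspa1l.S lies within 2159.4 to 2328.8 on all 8 arrays; canx.L is lower with Ptf1a in each batch.

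Batches of embryos differed in level by more for some members than for others. Over the 22 ER folding members at NF36 the median SD within a group was 0.22 on the log2 scale, whereas the SD of the change between batches was 0.12; over all named genes these were 0.14 and 0.10. pdia6.L had an SD within groups of 1.02, larger than that of 99.6% of named genes, and an SD of 0.09 between its batch changes. ssr1.L, by contrast, also varied in its batch changes. It read 76.2, 244.5, 216.3 and 377.4 in GFP and 138.3, 164, 205.8 and 299.9 in Ptf1a explants, higher in batch 1 and lower in the others, and its batch changes had an SD of 0.56. At NF32 the median SDs over the 23 ER folding members were 0.09 within groups and 0.14 between batch changes. Over all 96 members they were 0.10 and 0.11.

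The 3 members that rose with the block at NF36 were all below the stage median intensity. ddit3.L, which encodes CHOP, a factor induced late in ER stress and by other stresses, read 8.2, 9.6, 6.9 and 9.3 in GFP and 21.2, 12, 14.6 and 16.1 in Ptf1a explants at NF36. All Ptf1a values were above all GFP values, all of them under the stage median. The change of 0.38 ± 0.09 missed the threshold with no pair term and passed with the block (limma adjusted p = 0.0501 and 0.0181). It also passed with an offset of 1 (0.82, limma adjusted p = 0.0335), where the size of the change more than doubles, with array weights (0.0381), trended robust eBayes (0.0425) and the mean over probe sets (0.0429). Of the 8 fits without an array it passed in 1, that without Ptf1a replicate 2 (limma adjusted p = 0.0482). dnajb2.L, a J-domain protein of neurons in mammals, read 8.4, 3.7, 2.1 and 5.4 against 18.2, 10.6, 7.6 and 10.5, higher in every batch, with a change of 0.40 ± 0.13 (limma adjusted p = 0.123, 0.00283 with the block). dnajc27.S, a J-domain protein with a Rab-like GTPase part, changed by 0.28 ± 0.11 (limma adjusted p = 0.222, 0.0274 with the block), while its brighter copy dnajc27.L was at -0.03 ± 0.26. Detection calls were not used here, and whether values this low lie above background was not tested.

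At NF32 fewer members passed the test than at NF36, with 3 arrays per group in place of 4. dnajc5g.L, related to the cysteine string proteins of secretory vesicles, was the only member called with no pair term, and no ER folding, translocon, signal peptidase or COPII member was called. The medians were -0.12 over the 61 members of those groups, 0.00 over the 35 others and -0.02 over all 9260 named genes. Taken 1 by 1, the 4 ER and COPII groups had medians from -0.18 to -0.05. Among the others, the 6 mitochondrial chaperones had a lower median, -0.20, and 5 of them were lower in all 3 batches (28.5% of named genes). Lower calls numbered 1 of 96 (1.63% of named genes) and higher calls 0 (2.3%). At an unadjusted p under 0.05, 10 were lower and 2 higher, beside 9.06% and 8.67% of named genes. With the block 4 fell and 1 rose, beside 5.42% and 5.35%, which is near or below the background. Signs were less even: 65 of 96 members were below 0 (55.4% of named genes), 39 were lower in all 3 batches (28.5%) and 12 higher in all 3 (21.7%). All Ptf1a arrays lay below all GFP arrays for 17 members (12.6%) and above them for 5 (10.6%).

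dnajc5g.L read 149.1, 159.7 and 156.9 in GFP and 94.5, 97.6 and 112.8 in Ptf1a explants at NF32. The groups stood well apart, with a difference of means of -34.5% and a change of -0.54 ± 0.08 (limma adjusted p = 0.0225, 0.0105 with the block). The call remained in 1 of 6 fits without an array, that without Ptf1a replicate 3; adjusted p ran from 0.0334 to 0.109. At NF36 it read 193.5, 118.7, 149.6 and 107.9 against 109.6, 84.4, 120.7 and 81.5, a change of -0.45 ± 0.18 that passed with the block alone (limma adjusted p = 0.212, 0.0106 with it). These calls depend on the probe set: the dimmer one passed with no pair term at NF36 (-0.40 ± 0.10, limma adjusted p = 0.0481) and only with the block at NF32 (-0.38 ± 0.10, limma adjusted p = 0.123, 0.0356 with it).

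With the block, dnajb11.S, sec11c.S and hspa9.L fell as well at NF32. dnajb11.S read 170.6, 183.3 and 134.8 in GFP and 110, 117.1 and 115 in Ptf1a explants, apart in all arrays, by -0.45 ± 0.11 (limma adjusted p = 0.0961, 0.0415 with the block). sec11c.S read 287.3, 299.1 and 256.3 against 243.6, 240.5 and 191.7, also apart, by -0.30 ± 0.11 (limma adjusted p = 0.238, 0.0454 with the block). hspa9.L read 362.2, 387.1 and 380.6 against 286.4, 315.7 and 318.1, by -0.28 ± 0.08 (limma adjusted p = 0.112, 0.0442 with the block). dnajc27.S rose with the block from 6.9, 4 and 4.5 to 15.7, 11.2 and 27.9, a change of 0.67 ± 0.17 in which batch 3 was the highest (limma adjusted p = 0.103, 0.0412 with the block). All 5 block calls of NF32 were among the 38 of NF36, in the same direction. The matching overlap over all named genes was not counted. Without batch 1 or batch 2 the block called 0 members at NF32, and without batch 3 it called 6. Named genes called lower and higher were 1.72% and 2.04% without batch 1, and 2.17% and 2.44% without batch 2. Without batch 3 they were 4.30% and 5.43%.

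Among the other lumenal genes that fell with the block at NF36, none passed at NF32. dnajb11.L (-0.27 ± 0.08) and pdia6.L (-0.44 ± 0.19) were lower in all 3 batches with groups that did not overlap (limma adjusted p = 0.0745 and 0.11 with the block). calr.L read 908, 966.9 and 803.3 in GFP and 647.7, 747.5 and 772.7 in Ptf1a explants, apart in all arrays, with a change of -0.30 ± 0.10 (limma adjusted p = 0.211, 0.117 with the block). hsp90b1.L read 1422.2, 1418.1 and 1008.3 against 1087.8, 997.6 and 1078.7, lower in batches 1 and 2 and higher in batch 3 (-0.26 ± 0.14, limma adjusted p = 0.446). Batch 3 stood out for the whole group: the ER folding median was -0.23 in batch 1, -0.16 in batch 2 and 0.04 in batch 3. At NF36 the 4 batch medians of the group were all negative, -0.16, -0.38, -0.22 and -0.24. Both copies of BiP were close to 0 at NF32, hspa5.L at -0.03 (95% interval -0.26 to 0.21) and hspa5.S at -0.02 (-0.32 to 0.29). ddit3.L read 12.6, 12.3 and 8.3 in GFP and 17.9, 17 and 17.8 in Ptf1a explants, apart in all arrays, with 0.31 ± 0.09 that passed in neither fit (limma adjusted p = 0.122, 0.0616 with the block).

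**Figure D4:**
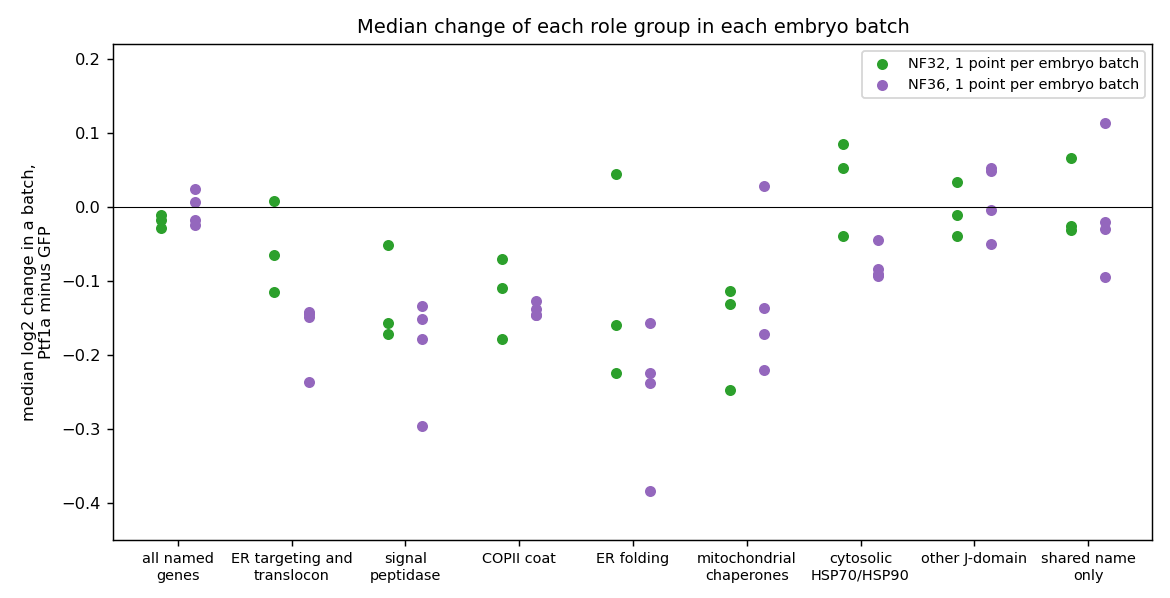
Median log2 change (Ptf1a minus GFP) of each role group within each batch of embryos, green for the 3 batches of NF32 and purple for the 4 of NF36, beside all named genes. The ER folding medians reach -0.38 at NF36 and include 0.04 in batch 3 of NF32, while the medians of all named genes lie within -0.03 and 0.02.

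Across the 94 members measured at both stages, changes at NF32 and NF36, which come from separate arrays, had Pearson's r of 0.72 and Spearman's rho of 0.69, beside 0.58 and 0.54 over all 9139 genes; these are descriptions across genes that share arrays within a stage. 58 members were below 0 at both stages (61.7%, against 38.2% of all genes). 30 were lower in all 7 batches (31.9%, against 13.8%), among them 8 of 21 translocon, 3 of 6 signal peptidase, 6 of 11 COPII and 8 of 22 ER folding members. The sample labels do not say whether a number stands for the same embryos at both stages, so the 7 may not be independent. Higher in all 7 were ddit3.L, dnajb2.L, dnajc27.S and sec22a.S, or 4.26% of members against 11.1% of all genes.

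**Figure D5:**
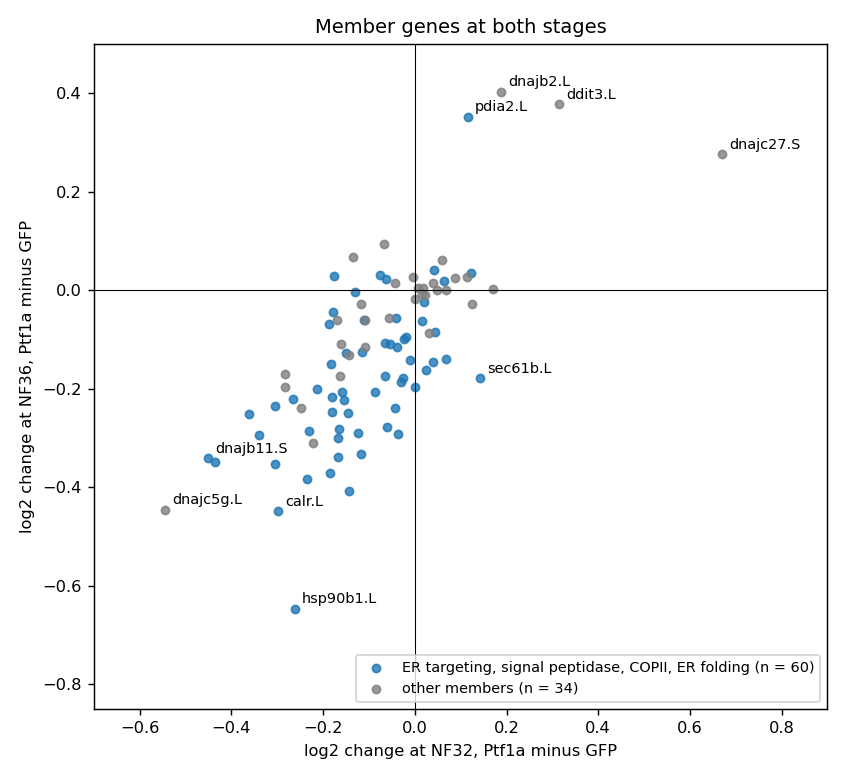
Log2 change (Ptf1a minus GFP) at NF32, horizontal axis, against that at NF36, vertical axis, for the 94 members measured at both stages; blue points belong to the 4 ER and COPII groups. Most points lie in the lower left, where 58 members were below 0 at both stages; sec61b.L is right of 0 and below it, and ddit3.L, dnajb2.L and dnajc27.S lie at the upper right.

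The difference of the Ptf1a effect between the stages passed for 0 of 94 members in limma with no pair term (1.26% of genes) and for 1 at an unadjusted p under 0.05 (8.9%). With the block 1 passed, beside 6.22% of genes, and 14 had an unadjusted p under 0.05, beside 19.2%. That gene was sec61b.L, which at NF32 read 1839.9, 1949.1 and 1919 in GFP and 2004.8, 2136.3 and 2163 in Ptf1a explants, higher in all 3 batches by 0.14 ± 0.07, and at NF36 was lower in all 4. The difference between its changes, NF36 minus NF32, was -0.32 ± 0.10 (limma adjusted p = 0.201, 0.0265 with the block). The next smallest p values belonged to sec61g.L (-0.21 ± 0.10), the other small channel subunit, dnajc1.S (-0.19 ± 0.10) and dnajc27.S (-0.39 ± 0.21), none of which passed. For hsp90b1.L the difference was -0.38 ± 0.21, so a larger fall at NF36 than at NF32 was not shown for it.

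The L and S copies had the same sign in 18 of 22 pairs at NF32 and 16 of 22 at NF36, beside 69.7% and 72.2% of the pairs among all genes. ssr4 differed most among bright pairs at NF32, where ssr4.L read 764.6, 840.2 and 700.9 in GFP and 737.1, 524.5 and 539.7 in Ptf1a explants (-0.36 ± 0.14), and ssr4.S was at 0.04 ± 0.08 on its brightest probe set, with 2 dim ones at -0.17 ± 0.14 and -0.37 ± 0.13. The difference between copies was not tested, and whether a probe set reads only its own copy was not tested. Of the 23 members read by several probe sets, the probe sets differed in the sign of their change for 12 at NF32 and for 6 at NF36.

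Other genes of the same machinery were taken from lists that contain no member. The 4 list medians at NF36 lay between -0.18 and -0.05, but 1 gene fell and 1 rose with no pair term. Counts with the block stand against 13.1% of named genes called lower and 13.4% called higher. Counts of changes below 0 stand against 50.6% of named genes. Of 28 genes of the unfolded protein response and ER-associated degradation, 1 fell with no pair term, and 11 fell and 1 rose with the block; 26 changes were below 0 and the median was -0.15. The gene called was edem1.L, a lectin of ER degradation, at 43.0 ± 3.27 in GFP and 28.0 ± 4.89 in Ptf1a explants (-0.43 ± 0.09, limma adjusted p = 0.0304). creld2.S, an ER stress-responsive lumenal protein, was close behind at -0.63 ± 0.16 (limma adjusted p = 0.0539, 0.00258 with the block). Of 32 genes of oxidative folding and glycosylation, 1 rose with no pair term, 16 fell and 1 rose with the block, and 27 changes were below 0. The rise was in fkbp10.L, an ER prolyl isomerase for collagens, from 188 ± 37.0 to 332 ± 55.1 (0.77 ± 0.15, limma adjusted p = 0.0264). Of 34 genes of cargo receptors and coats between ER and Golgi none passed with no pair term, 17 fell with the block, and all 34 changes were below 0; bet1.L (-0.29 ± 0.08, limma adjusted p = 0.0885) and kdelr1.S (-0.22 ± 0.07, limma adjusted p = 0.136) had the smallest p. Among 20 partners of cytosolic and mitochondrial heat shock proteins none passed with no pair term, 4 fell and 1 rose with the block, and 13 changes were below 0. The mitochondrial chaperonin genes hspd1.S and hspe1.L were at -0.40 ± 0.11 and -0.30 ± 0.09 (limma adjusted p = 0.078 and 0.0992).

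At NF32 a single gene of these lists passed with no pair term, and the block called 5.42% of named genes lower and 5.35% higher. The response and degradation list had 27 of 28 changes below 0 (55.4% of named genes) and a median of -0.17, with no call and 1 fall with the block, creld2.S (-0.55 ± 0.16, limma adjusted p = 0.145, 0.0288 with the block). edem1.L was at -0.35 ± 0.10 (limma adjusted p = 0.124). For folding and glycosylation 23 of 33 changes were below 0, with a median of -0.07. For cargo receptors and coats it was 27 of 33 (-0.06), and for heat shock partners 11 of 20 (-0.05). The folding and glycosylation list had no call and 1 fall with the block, ganab.L, a subunit of glucosidase II, at -0.31 ± 0.08 (limma adjusted p = 0.0877, 0.0362 with the block), with stt3b.S next at -0.25 ± 0.08. The cargo and coat list had no call in either fit, with copg1.L (-0.19 ± 0.08) and sec16a.L (-0.16 ± 0.07) at the smallest p. Among 20 heat shock partners, 2 fell and 1 rose with the block. hspbp1.L, an HSP70 nucleotide exchange factor, rose from 169 ± 6.76 to 238 ± 9.47 (0.46 ± 0.07, limma adjusted p = 0.0233).

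Marker genes of other cell types differed between the same explants. The summed intensity of 14 liver genes, whose cells secrete heavily, ran from 17181 to 20084 in GFP and from 12726 to 17507 in Ptf1a explants at NF36, with 1 of 14 lower (8 with the block), and from 7164 to 11991 and from 6412 to 7341 at NF32, with 1 of 14 lower (6 with the block). Anterior endoderm genes summed to 1769 to 2232 against 1594 to 1970 at NF36 and to 1952 to 1987 against 1462 to 1645 at NF32; of 10, 1 was lower and 1 higher at NF36 (5 and 1 with the block), and 2 were lower at NF32 (6 with the block). Blood genes summed to 3589 to 6128 in GFP and 420 to 881 in Ptf1a explants at NF32, with 10 of 15 lower (12 with the block), and to 2516 to 5596 against 838 to 3043 at NF36, with 4 of 17 lower (14 with the block, and 1 higher). Neuronal genes went the other way, from 726 to 876 in GFP and from 2906 to 3247 in Ptf1a explants at NF32, with 14 of 18 higher (16 with the block), and from 497 to 596 against 761 to 1229 at NF36, with 5 of 18 higher (10 with the block, and 1 lower). Epidermal genes were higher for 11 of 14 at NF36 (13 with the block) and for 1 at NF32, with sums at NF36 of 1959 to 3401 against 5650 to 7110. Exocrine pancreas genes were low in both groups, with sums of 151 to 210 in GFP and 147 to 310 in Ptf1a explants at NF36 and 1 of 11 higher (4 with the block); at NF32 1 of 6 was higher (with the block, also 1 lower). The exocrine list includes the member pdia2, so it is not separate from the genes described here. Heart genes were lower for 6 of 10 at NF32, with sums of 2597 to 2907 in GFP and 2272 to 3100 in Ptf1a explants. None passed at NF36 (1 higher with the block), where no heart change was below 0 and sums were 610 to 2382 against 2061 to 3297. No skeletal muscle gene passed at either stage (1 of 8 lower with the block at NF36). Their sums at NF32 were nevertheless 257 to 2376 in GFP and 2743 to 5830 in Ptf1a explants, with 1 of 8 changes below 0. At NF36 the muscle sums were 421 to 676 against 468 to 2154, with 2 of 8 changes below 0. Endocrine genes were higher for 1 of 7 at NF32 (with the block, also 1 lower), and at NF36 2 were higher and 2 lower. Both hatching and cement gland genes were higher at NF36. No marker averaged 0 in a group. The part of these cells in the changes of the ER genes was not tested.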

How the data were processed

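RNA of 14 samples in 4 groups was measured on Affymetrix arrays. The authors deposited 1 column of linear intensity per array, 1 value per probe set to 1 decimal. PLIER is named per the submitters' processing notes. The sources used here do not give its version and settings, the scaling or any filter. GEO's series description names another chip for NF36 than for NF32, yet both stages carry identifiers of 1 chip, and which chip NF36 used was not settled. Symbols came from the platform annotation; 74 members had 1 probe set and 23 several, 129 in all, and 3 further probe sets with several symbols were not used. All 97 symbols matched RefSeq by gene ID. All 22855 probe sets of NF32 and 23614 of NF36 were tested with limma 3.58.1 in R 4.3.3 (2-sided, default eBayes) on log2(value + 16) without further normalization; p values were adjusted by Benjamini-Hochberg across every probe set tested at a stage, with a threshold of 0.05. The stage difference was a contrast over 9139 genes. The number of arrays limits precision, as do the spread between batches and, for dim genes, the offset.

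Numbered arrays are treated as batches of embryos, since the series description states that control and Ptf1a samples came from the same batch. Departures from the group mean correlated across probe sets at 0.297 to 0.711 (NF32) and 0.639 to 0.765 (NF36) within a number and at no more than 0.257 and 0.022 between numbers. Such departures cancel over the arrays of a group, so positive values within a number by themselves pull those between numbers down. Over the members alone the pairing was less clear at NF32. There GFP replicate 3 with Ptf1a replicate 2 gave 0.311, above the 0.232 of the arrays numbered 2. At NF36 members gave 0.651 to 0.902 within a number and at most 0.215 between numbers. Blocked counts and calls stand beside those with no pair term.

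Members, lists, roles and alternatives were chosen with earlier results of these data known. Named are members past the threshold, the 2 smallest p and the brightest per role, the 5 largest rises and falls, copies of hspa5, hsp90b1, pdia genes, calr, canx and ddit3, and per list the called genes or the 2 smallest p; others, mostly block calls, and the genes without a call set beside them, were named after their values were seen. Alternatives were the block, offsets of 1 and 64, median centring or quantile normalization of the arrays, a filter at the 40th percentile of intensity, array weights (statmod 1.5.0), trended robust eBayes, averaged probe sets, and fits without each array. Tested on simulated data, changes of 0.3 (log2) were recovered for 0% of genes at NF32 in either fit and at NF36 for 13% without and 3% with the block; changes of 1 for 69% and 68% at NF32 and 76% and 81% at NF36. The simulation changed 100 probe sets at each size and gave batches and residual noise equal variance. Fewer probe sets changed there than were called here, so its recovery, and the order of the fits, need not hold for these data. Protein and promoter sequences of members were not analysed here.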

Additional observations from a re-analysis of the deposited data

Results flagged for a closer look

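In 88 groups of 4 arrays at NF36 (44 named members in GFP and in Ptf1a explants), 6 held an array far from the other 3 by Dixon's criterion, and chance alone flags about 5% of groups. Groups of 3 arrays at NF32 were not examined. canx.S read 320.7 on Ptf1a replicate 3, against 184.3 to 194.3 on the others. hspa9.L read 302.3 on Ptf1a replicate 4, against 238.9 to 247.8. dnajc13.S read 59.1 on Ptf1a replicate 3, against 79 to 83.1, and dnajc8.S 164.9 on GFP replicate 3, against 186.6 to 188.8. sec11a.L, which fell at NF36, read 269.8 on Ptf1a replicate 2, against 294 to 297.2. srpk1.S read 276.6 on GFP replicate 1, against 266.3 to 267.1.

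At NF32 and NF36 the batches differed in direction for 3 members: every NF32 batch was on a side of 0 opposite to every NF36 batch. The share of all named genes with this pattern was not counted. The difference of the change, NF36 minus NF32, was -0.32 for sec61b.L (limma adjusted p = 0.201, 0.0265 with the block), -0.21 for sec61g.L (limma adjusted p = 0.583, 0.105 with the block) and 0.20 for dnajb13.S (limma adjusted p = 1.00, 0.191 with the block), so only that of sec61b.L passed, and only with the block.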

How the results depend on the processing

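The count of members past the threshold at NF36 was 3 with no pair term, 38 with the replicate block (35 lower, 3 higher) and 5 with array weights. At NF32 it was 1, and 5 with the replicate block, and for the stage difference 0, and 1 with the replicate block. Leaving out 1 array gave 0 to 2 members at NF36 and 0 to 1 at NF32. The other planned settings stayed within 1.5 times of these counts. The share of named genes called moved as well. At NF36, array weights called 3.44% lower and 5.98% higher, beside 2.23% and 4.17% without them and 13.1% and 13.4% with the block. At NF32, fits without 1 array called 0.40% to 1.33% lower and 0.60% to 1.77% higher, beside 1.63% and 2.30% with all arrays. Settings combined with the block were chosen after seeing the data. At NF32 its 5 calls became 2 with an offset of 1, 1 with quantile normalization and 3 without probe sets below the 40th percentile. They became 0 to 6 without a batch of embryos. At NF36 its 38 became 33, 21, 23 and 21 without batch 1, 2, 3 and 4, and the other combinations stayed within 1.5 times. The block at NF32 called 3.25% of named genes lower and 4.19% higher with an offset of 1. Quantile normalization gave 4.90% and 4.84%, and the filter 5.05% and 4.00%. At NF36 without batch 1 the block called 8.97% lower and 11.1% higher. No named member called with no pair term changed sign in any setting. Uncalled changes did so in 26 comparisons of 687 at NF32 and 32 of 745 at NF36. Not all of these were near 0: pdia6.L at NF36 (-0.35 ± 0.61 with no pair term) changed sign without Ptf1a replicate 1. That fit kept the GFP array of the same batch, in which pdia6.L was low in both groups. The cause was not tested. Scaling moved the median of all genes by under 0.1 and left the members' median below 0 in every setting. The same-identifier alternative of the stage difference changed no call. Member changes of 0.2 to 0.3 do not exceed the simulated 0.3, which was rarely recovered under settings that need not match these data. Intensities under 16 are compressed by the offset, and signal over background was not given. Analyses of ER retention signals and promoter motifs were not run.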
